A study of Mus musculus with 74 samples.

Results

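The gonads of 129S1/SvImJ (129S1) and C57BL/6J (B6) mouse embryos were compared at E11.0, the earliest stage of the time course, when XX and XY gonads are still bipotential. The comparison rests on the 14 arrays whose labels give stage E11.0, of 74 arrays in the whole series: 3 XX and 5 XY pairs of gonads from 129S1, and 3 XX and 3 XY pairs from B6. Both are inbred strains without a transgene or treatment, and the study chose them because B6 is sensitive and 129S1 resistant to XY sex reversal. Each array holds the RNA of 1 pair of gonads, separated from the mesonephros and read on MouseRef-8 v2.0 BeadChips. The 60 arrays of E11.2 to E12.0 come from other embryos. They enter the probe filter and the spread of each probe, define the sets of later dimorphic, rising and falling genes, and give the strain difference at later stages; fitted on the 14 arrays alone, the strain comparison below called 1019 probes in place of 1208. The question was how far the gonad transcriptomes of the strains differed before testis and ovary part, with karyotype as a factor.

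The bipotential gonad forms as a thickening of coelomic epithelium and mesenchyme beside the mesonephros and is colonised by primordial germ cells. Transcription factors such as Gata4, Wt1, Nr5a1 and Lhx9 are needed for its formation and for the later expression of Sry, which directs the XY gonad to a testis fate through Sox9, whereas Wnt4 and Rspo1 signaling supports the ovarian fate. Inbred strains carry different alleles throughout the genome, and such alleles can change a transcript's level or change how well a probe binds it.

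All levels are log2 values as deposited, and every difference is 129S1 minus B6, averaged over XX and XY gonads, ± the standard error of the limma fit. A probe was called where its Benjamini-Hochberg adjusted p in limma, over the 12849 kept probes, was under 0.05. Kept probes are the brighter 50% and the dimmest of them reached 7.59 on its second-brightest array, against a median of 7.40 over all 25697 probes. Replicates are separate embryos, and the number of arrays limits the precision (median standard error 0.09). Of the gonad markers, Wt1 lay between 12.76 and 13.71, Lhx9 between 9.11 and 10.31, Gata4 between 8.11 and 8.87 and Nr5a1 between 7.90 and 8.54 on the 14 arrays, whereas Emx2 was not among the kept probes. The embryonic globins Hbb-y (14.18 to 15.23) and Hba-x (13.26 to 14.64) show that blood was part of every sample. Markers of differentiated Sertoli cells were dim, with Amh between 6.98 and 7.26 and Dhh between 7.10 and 7.53. The first principal component of the arrays (31.9% of the variance) separated the strains, at 8.6 to 15.1 for 129S1 and -23.0 to -9.45 for B6. The second (23.6%) set B6 XY replicate 2 (23.7) and B6 XX replicate 3 (19.5) apart from the other arrays.

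At E11.0 the strains differed widely. Of 12849 probes, 1208 (9.4%) were called, representing 1016 genes. In 129S1, 555 probes (4.32%) were higher and 653 (5.08%) were lower. By size, 32 probes were higher and 87 lower by 1 or more, 131 and 205 by 0.5 to 1, and 392 and 361 by under 0.5. On 573 probes (4.46%) the 8 arrays of 129S1 and the 6 of B6 did not overlap, and 561 of these were called. Without the B6 arrays that stood apart on the second component, 1164 probes were called, 975 of them shared with the full comparison.

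The probe of Gbp2b, an interferon-inducible guanylate-binding protein that acts against intracellular pathogens, showed the largest difference among probes higher in 129S1. Its level was 10.19, 10.79 and 11.57 (lowest, median and highest of 8 arrays) in 129S1 and 8.06, 8.31 and 8.61 (of 6 arrays) in B6. Every 129S1 array lay above every B6 array, with a difference of 2.52 ± 0.16 (5.73-fold, limma adjusted p = 1.22e-19). Its paralog Gbp2 was at 10.89 or more on every 129S1 array (median 11.06) and at 8.95 or less on every B6 array (median 8.76), a difference of 2.32 ± 0.16 (adjusted p = 3.34e-18). Trpc7, a cation channel subunit, ranged from 10.36 to 11.29 in 129S1 and from 7.81 to 8.62 in B6 (2.39 ± 0.15, adjusted p = 2.12e-19). The receptor-type tyrosine phosphatase Ptprv ranged from 10.25 to 10.67 in 129S1 and from 8.14 to 8.66 in B6 (2.00 ± 0.13, adjusted p = 4.62e-19). Ppp4r4, a regulatory subunit of protein phosphatase 4, was measured between 8.48 and 9.35 in 129S1 and between 7.18 and 7.55 in B6, where it sat at the dim end of the scale (1.64 ± 0.16, adjusted p = 2.11e-12). These genes were picked among called probes whose arrays did not overlap between the strains.

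With 1 probe taken per gene, and only called probes whose arrays did not overlap between the strains, the others of the 15 largest positive differences were Pisd-ps2, a phosphatidylserine decarboxylase pseudogene (2.23), the predicted gene Gm5796 (2.08), Sprr2d (1.67), Timmdc1, an assembly factor of respiratory complex I (1.65), the epithelial splicing regulator Esrp1 (1.57), the kynurenine aminotransferase Kyat3 (1.54), the phospholipid flippase Atp10d (1.45), the class I gene H2-Bl (1.41), Rgs5 (1.35), a regulator of G protein signaling known from pericytes, and Saraf (1.34), a regulator of calcium entry. Their adjusted p ranged from 1.04e-22 for Gm5796 to 7.09e-06 for Sprr2d. Sprr2d varied most within a strain, from 8.68 to 10.50 in 129S1 and from 7.49 to 8.14 in B6. Pisd-ps2, Gm5796, H2-Bl and the Gbp genes belong to families of near-identical copies, so a probe may take up signal from more than 1 member.

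Mcm6, a subunit of the replicative DNA helicase, was at 7.15, 7.26 and 7.63 in 129S1 and at 10.85, 11.19 and 12.19 in B6 on the most different of its probes (-3.96 ± 0.29, adjusted p = 7.89e-17). The mitotic kinase Plk1 ranged from 7.36 to 7.95 in 129S1 and from 10.99 to 11.33 in B6 (-3.62 ± 0.29, adjusted p = 1.60e-15). Zfp330, a zinc finger protein, had the smallest p of all probes, with 7.01 to 7.31 in 129S1 and 10.57 to 11.07 in B6 (-3.60 ± 0.08, adjusted p = 7.22e-42). On these probes the 129S1 arrays lay near or below the dimmest kept level and the B6 arrays more than 3 units above them. This was common: the 129S1 mean fell below 7.59 for 37 of the 87 probes lower by 1 or more, whereas the B6 mean did so for 4 of the 32 probes higher by 1 or more. Detection calls were not analysed here, so fold changes of such probes hold for the deposited values only.

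Fkbp9, a prolyl isomerase of the endoplasmic reticulum, was bright in both strains, at 9.96, 10.27 and 10.51 in 129S1 and 12.92, 13.13 and 13.36 in B6 (-2.89 ± 0.22, adjusted p = 5.82e-16). Kctd14, a gene with a BTB-type domain, was likewise bright, at 9.89, 10.43 and 11.04 against 12.34, 12.94 and 13.54 (-2.53 ± 0.22, adjusted p = 8.31e-14). Picked in the same way, the remaining 10 of the 15 largest negative differences were the ribosomal protein gene Rpl29 (-3.15), the proteasome subunit Psmd8 (-3.00), the signalosome subunit Cops8 (-2.98), the mitochondrial import receptor Tomm22 (-2.80), the protein kinase A inhibitor Pkig (-2.37), the PCNA-binding factor Pclaf (-2.26), Epm2aip1 (-2.25), the ribosome assembly factor Mak16 (-2.23), the small GTPase Rabl2 (-2.11) and the beta-globin Hbb-bt (-2.07). Hbb-bt, a member of a family of near-identical copies, had the largest adjusted p of the 15 (1.07e-05).

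**Figure D1:**
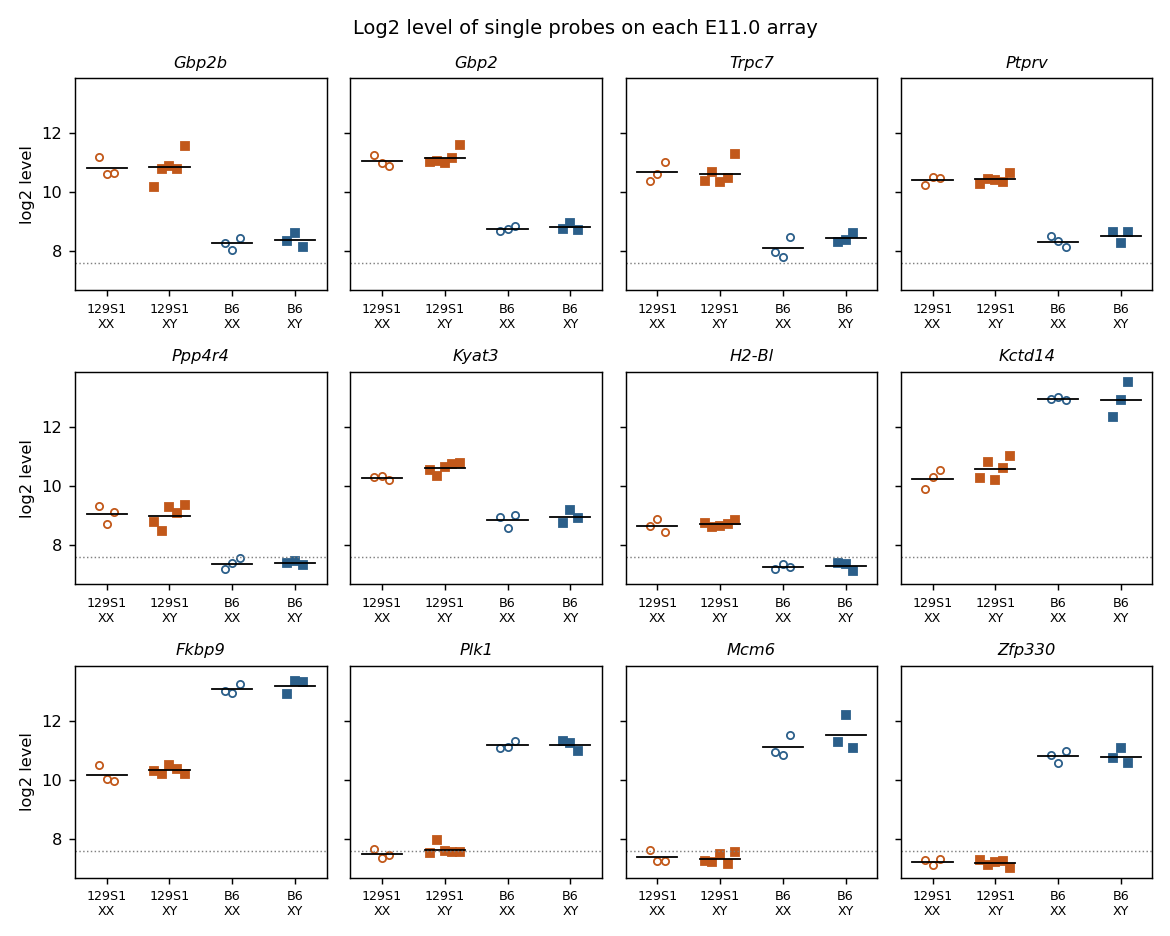
Log2 level (vertical axis) of 1 probe for each of 12 genes on every E11.0 array, by strain and karyotype (horizontal axis); points are arrays, black bars are group means and the dotted line is the dimmest kept level of 7.59. In the panels of Gbp2b to H2-Bl every 129S1 array is above every B6 array, and in those of Kctd14 to Zfp330 every 129S1 array is below; the 129S1 arrays of Plk1 and Mcm6 lie around or below the dotted line and those of Zfp330 all lie below it.

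The strain difference was also read in XX and in XY gonads, which come from separate embryos but share the normalization and the estimate of spread. The labels do not give litters, which XX and XY embryos may share as well. In XX gonads alone (3 arrays against 3) 607 probes (4.72%) were called, and 594 of them had the same sign in XY. In XY gonads alone (5 against 3) 685 probes (5.33%) were called, 668 with the same sign in XX, and 406 probes were called in both. Of the 119 probes called at 1 or more on the average of XX and XY, 116 were called in each karyotype on its own; that they all had the same sign in both is partly fixed by their choice on that average. Gbp2b differed by 2.56 ± 0.24 in XX and 2.48 ± 0.21 in XY gonads. As a description, the difference in XX correlated with that in XY at r = 0.716 across the 12849 kept probes, which are not independent and share the normalization.

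The interaction of strain and karyotype was tested directly and gave 0 calls in limma, with a smallest adjusted p of 0.668 and 517 probes at an unadjusted p under 0.05. The fit on the 14 arrays alone and the fit with array weights also gave 0. The named probe with the smallest p was Ecm1, an extracellular matrix protein, lower in 129S1 by -0.57 ± 0.12 in XX and at 0.11 ± 0.11 in XY gonads, an interaction of 0.68 ± 0.17. Next came Akr1c19, an aldo-keto reductase (-0.55 ± 0.11 in XX, 0.04 ± 0.10 in XY), Mtdh (0.04 ± 0.13 in XX, -0.61 ± 0.11 in XY) and the homeobox gene Uncx (-0.24 ± 0.11 in XX, 0.35 ± 0.10 in XY), each also at an adjusted p of 0.668. The median standard error of this contrast was 0.19, against 0.09 for the strain difference itself.

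The sexes themselves differed little at this stage. Between XY and XX gonads of both strains, 8 probes (0.0623%) were called, 3 higher in XY and 5 higher in XX. These were 2 probes each of Xist, the RNA of X inactivation, and of the X-linked demethylase Kdm6a, 1 each of Eif2s3x, Eif2s3y and Kdm5d, and 1 probe without a gene symbol. Thus 1208 probes were called by strain and 8 by sex. The strain count includes any effect of alleles on probes, so the 2 counts do not compare how far transcript levels diverged.

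**Figure D2:**
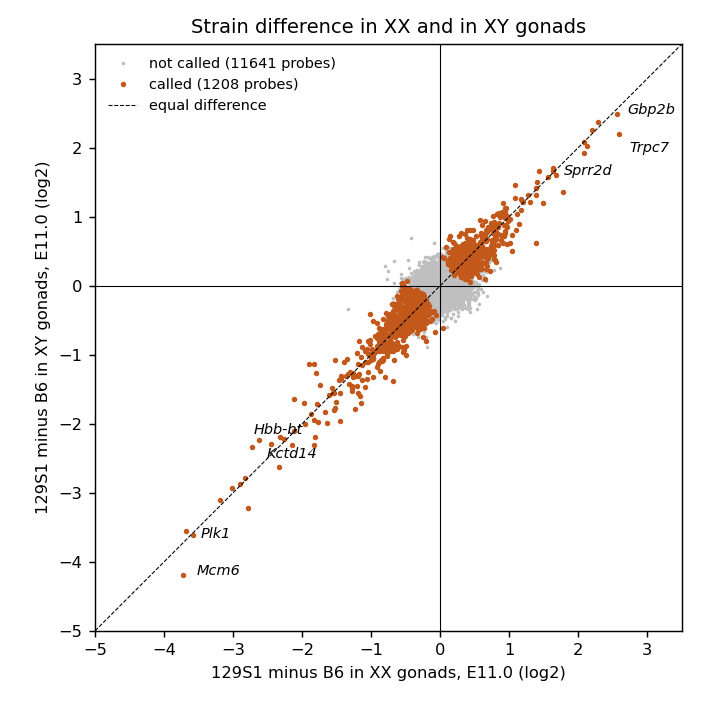
Difference of 129S1 minus B6 in XX gonads (horizontal axis, log2) against that in XY gonads (vertical axis, log2) for the 12849 kept probes; orange points are the 1208 called probes and the dashed line marks equal differences. Probes with differences of 1 or more lie along the dashed line in the upper right and lower left corners, from Mcm6 to Gbp2b.

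Probes of the same gene give a partial check on each difference, since an allele under 1 probe can lower it without lowering probes elsewhere on the transcript. Of the 1208 called probes, 472 had another kept probe of the same gene. In 226 of these (47.9%) another probe was called in the same direction, in 16 other probes were called only in the opposite direction, and in 230 no other probe was called. Of the probes higher by 1 or more, 9 of 12 had another probe called the same way, and of those lower by 1 or more, 26 of 37. Each pair of probes of a gene was then compared within arrays, a test added after these values were seen. The strain difference was unequal for 209 of 4131 pairs (5.06%), and for 48 of the 62 pairs that held a probe called at 1 or more. Those 62 pairs were picked by the size of 1 member on the same arrays, so their high share is partly fixed by that choice.

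By gene, 98 named genes had a probe that differed by 1 or more, and 38 of them had other kept probes. In 18 genes every kept probe was called in the same direction, and in 8 of those the smallest difference was at least 0.5 times the largest. Kctd14 was lower on all 3 probes (-2.53 ± 0.22, -2.48 ± 0.24 and -2.43 ± 0.26). Ppp4r4 was higher on both (1.64 ± 0.16 and 1.57 ± 0.12), as was Kyat3 (1.54 ± 0.13 and 1.25 ± 0.12). Zcchc3, a zinc finger protein, was lower on 3 (-1.38, -1.34 and -1.29), and Cdkn1a, an inhibitor of cell cycle kinases, was higher on 3 (1.18, 0.99 and 0.77). AW551984 (-1.56, -1.54 and -1.06) and Twistnb, a subunit of RNA polymerase I (-1.67 and -1.15), were lower on every probe too.

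In other genes the probes parted. The 4 probes of Mcm6 gave -3.96 ± 0.29, -0.47 ± 0.09, -0.22 and -0.15, and those of Zfp330 gave -3.60 ± 0.08 and -0.38 ± 0.11 (the latter lost its call without 129S1 XX replicate 3, adjusted p = 0.0692). Epm2aip1 was lower by -2.25 on 1 probe and measured -0.21 and 0.11 on its others, and Mak16 gave -2.23 and -0.15. Apex1, a DNA repair endonuclease (-1.20 and -0.03), Parp2 (-1.02 and 0.07) and Actb, the cytoplasmic actin gene (-1.02 on 1 of 5 probes, -0.09 to 0.46 on the others), showed the same pattern. Gbp2 was higher on both of its probes, but by 2.32 and 0.31, the second of which reached only 7.30 to 7.52 in 129S1. Saraf was higher on 1 probe (1.34 ± 0.21) and lower on 2 (-0.84 ± 0.13 and -0.59 ± 0.10), each of them called. For 13 genes no other probe was called, 11 of them with the lower probe. Of the 98 genes, 17 higher and 43 lower ones had 1 kept probe and could not be checked in this way. Among them were Gbp2b, Trpc7, Pisd-ps2, Gm5796, Ptprv, Timmdc1, Esrp1, H2-Bl and Rgs5 on the higher side, and Plk1, Psmd8, Cops8, Fkbp9, Tomm22 and Pclaf on the lower. Probe sequences and strain variants were not analysed here, so an effect of an allele on the probe and a change in transcript level cannot be told apart for these genes. Where the probes of a gene lie on its transcript was not examined either. In genes with several probes the cause of unequal differences was therefore not tested.

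**Figure D3:**
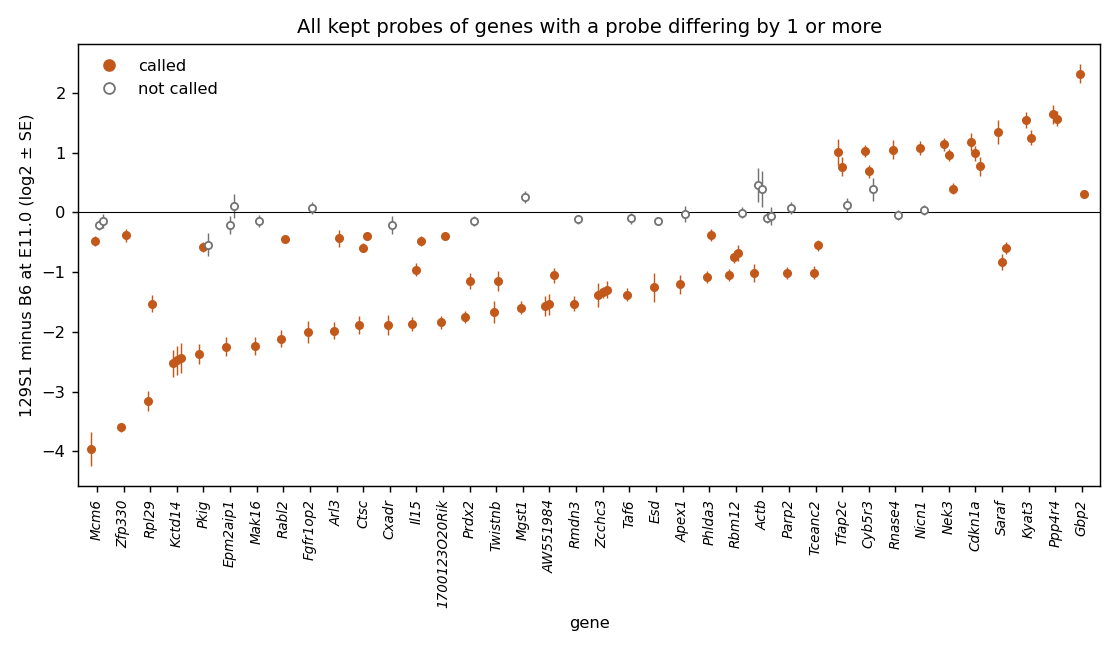
Difference of 129S1 minus B6 (vertical axis, log2) of every kept probe of the 38 genes that had several kept probes and at least 1 called probe differing by 1 or more; error bars are limma standard errors. The points of Kctd14, Zcchc3, Ppp4r4 and Kyat3 lie close together, whereas 1 point of Mcm6, Zfp330 and Epm2aip1 lies far below the rest and Saraf has points on both sides of 0.

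Genes that differed were sometimes neighbours. Among 9000 measured genes in the order of the annotation, 908 were called by their brightest probe, and 98 adjacent pairs were called in the same direction against 59 in opposite directions. There were 9 runs of 3 or more genes and 76 of 2 genes. The longest was a run of 5 on chromosome 3, Gbp7, Gbp3, Gbp2b, Gbp2 and Kyat3, all higher in 129S1. Gbp3 differed by 0.68 ± 0.08 on 1 probe and 0.77 ± 0.11 on the other, and Gbp7 by 0.33 ± 0.06. Next in length were Kbtbd2, Fkbp9, Nt5c3 and Ppm1k on chromosome 6, all lower (sizes 0.36 to 2.89), and Osgep, Apex1, Pnp and Ang on chromosome 14, all lower (0.22 to 1.20). The size of 1.20 is that of Apex1, whose other probe gave -0.03 and was not called. Other runs were H2-T23, H2-Bl and Rpp21 in the major histocompatibility complex (chromosome 17, higher), the Nodal antagonists Lefty2 and Lefty1 (chromosome 1, higher by 0.58 ± 0.14 and 0.42 ± 0.12) and the collagen VI chains Col6a1 and Col6a2 (chromosome 10, higher by 0.57 ± 0.13 and 0.53 ± 0.12). The share of genes called was highest on chromosome 14 (18.2%) and lowest of the autosomes on chromosome 16 (4.38%).

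The promoters of the most different neighbours in the chromosome 3 run are shown because those genes were higher together. Each stretch covers 250 bases before and 50 after the start site on the plus strand (RefSeq, GRCm38.p6; chr3:142594597-142594896 for Gbp2b, chr3:142620413-142620712 for Gbp2 and chr3:142700798-142701097 for Kyat3). Capitals mark matches to TTTCNNTTTC, the core of the element bound by interferon-regulated factors, searched on both strands (GAAANNGAAA on the other).
Gbp2b: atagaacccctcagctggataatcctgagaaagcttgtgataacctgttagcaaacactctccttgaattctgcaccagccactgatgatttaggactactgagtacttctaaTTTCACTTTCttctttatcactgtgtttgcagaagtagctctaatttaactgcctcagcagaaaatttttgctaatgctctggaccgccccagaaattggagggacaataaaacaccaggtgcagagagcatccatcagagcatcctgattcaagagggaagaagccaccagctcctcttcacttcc
Gbp2: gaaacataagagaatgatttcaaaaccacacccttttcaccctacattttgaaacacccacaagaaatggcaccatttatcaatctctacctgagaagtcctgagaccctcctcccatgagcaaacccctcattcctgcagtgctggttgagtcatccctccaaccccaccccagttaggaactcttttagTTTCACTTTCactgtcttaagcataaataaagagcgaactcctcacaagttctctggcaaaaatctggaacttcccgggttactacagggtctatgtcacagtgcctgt
Kyat3: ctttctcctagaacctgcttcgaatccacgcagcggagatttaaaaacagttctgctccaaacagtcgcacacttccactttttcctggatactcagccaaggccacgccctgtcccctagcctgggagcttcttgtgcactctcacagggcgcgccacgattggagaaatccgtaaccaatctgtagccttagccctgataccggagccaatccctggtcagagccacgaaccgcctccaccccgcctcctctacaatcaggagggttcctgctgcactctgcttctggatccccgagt
Gbp2b and Gbp2 each held 1 match, beginning 137 and 59 bases before the start site, and Kyat3 held 0. Gbp3, of the same run, has 2 start sites in the annotation table, with 2 overlapping matches before 1 of them and 0 before the other. Of all 32851 promoters of this length, 1131 (3.44%) held a match. A match is a description of the reference sequence, which is that of B6, and the 129S1 sequence was not analysed here.

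Gene lists were then read by the brightest kept probe of each gene, for which 431 of 9003 genes (4.79%) were higher, 478 (5.31%) were lower, 10.1% in all were called, and the median difference was 0.01. Of 17 measured transcription factors of the genital ridge, 1 was lower, 0 were higher and the median was -0.07. Gata6, a zinc finger factor of the early gonad, was the called member (-0.34 ± 0.12, adjusted p = 0.0493), and its call was lost in 10 of the 14 fits that left out 1 array, with an adjusted p of up to 0.214 (without B6 XY replicate 2). Gata4 (0.05 ± 0.13), Nr5a1 (-0.04 ± 0.13), Lhx9 (-0.06 ± 0.14) and Wt1 (-0.19 ± 0.10) were not called. Neither was Lmo4, the LIM-domain regulator that the study followed up (0.17 ± 0.12, adjusted p = 0.557). Missing a call does not show that the levels were equal, since the standard errors of these 5 genes were 0.10 to 0.14.

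Of 28 measured genes of the male pathway, 3 were higher in 129S1 and 0 lower, with a median of 0.04. Defb19, a beta-defensin expressed in Sertoli cells, ranged from 9.01 to 9.74 in 129S1 and from 8.25 to 9.02 in B6 (0.79 ± 0.15, adjusted p = 4.46e-05). The highest B6 array lay just above the lowest 129S1 array. Etv4, a transcription factor downstream of FGF signaling, was higher by 0.45 ± 0.12 (adjusted p = 0.00721), and Fbln2, a matrix glycoprotein, by 0.51 ± 0.14 (adjusted p = 0.00706), which was lost without 129S1 XX replicate 1 (adjusted p = 0.082). Sox9, at 7.53 to 8.10 in 129S1 and 7.34 to 7.78 in B6, was not called (0.26 ± 0.14, adjusted p = 0.31), nor was Fgf9 (0.10 ± 0.09). Gadd45g, an activator of the kinase cascade upstream of Sry, was the 1 member called of 11 in that list (0.35 ± 0.11, higher), but lost its call in 6 of 14 fits without 1 array (adjusted p up to 0.218, without 129S1 XX replicate 3).

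Of 24 measured genes of the female pathway, 5 were lower and 2 higher in 129S1 (29.2% called), with a median of -0.15. Gng13, a G protein subunit, ranged from 7.10 to 7.54 in 129S1 and from 8.12 to 8.68 in B6 (-1.04 ± 0.11, adjusted p = 1.82e-11). Lypd6, a modulator of Wnt signaling, ranged from 7.70 to 7.97 and from 8.52 to 8.72 (-0.82 ± 0.08, adjusted p = 3.33e-12). In both genes the strains were apart on every array. The homeobox gene Msx1 was lower by -0.61 ± 0.14 (adjusted p = 0.00107). Fgfr2 was lower by -0.25 ± 0.08, a call lost in 10 of 14 fits without 1 array (adjusted p up to 0.23, without 129S1 XX replicate 2); Gata6, also on this list, is described above. The higher members were Sprr2d and Cdkn1a, named above. Wnt4 (-0.07 ± 0.20), Rspo1 (-0.07) and Fst (-0.19) were not called.

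Of 23 germ cell genes, 3 were higher and 1 was lower in 129S1 (17.4% called), with a median of 0.16. Tfap2c, a transcription factor of primordial germ cells, ranged from 9.89 to 10.37 in 129S1 and from 8.57 to 9.99 in B6 on its brightest probe (1.01 ± 0.21, adjusted p = 0.000452). Another of its probes gave 0.76 and the last 0.12. Zfp42 was higher by 0.58 ± 0.10 and Dazl by 0.54 ± 0.17, the latter lost in 7 of 14 fits without 1 array (adjusted p up to 0.0974, without 129S1 XX replicate 1). Rec8, a cohesin subunit of meiosis, was lower by -1.60 ± 0.13 on its single probe (7.64 to 8.0 against 8.91 to 9.68). Pou5f1 (0.10, adjusted p = 0.931) and Dppa3 (0.16, adjusted p = 0.839), which are high in primordial germ cells, were not called. The list's mean level ranged from 8.37 to 8.74 in 129S1 arrays and from 8.22 to 8.80 in B6 arrays, which overlapped. In such bulk samples, fewer cells of a type and less RNA per cell cannot be told apart.

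Of 17 macrophage and leukocyte genes, 3 were lower, 0 higher, and the median was -0.15. A difference above 0 was found for 1 of these 17, against 4894 of all 9003 genes. Other lists leaned too, with 19 of 23 germ cell, 16 of 19 endothelial and 4 of 24 female pathway genes above 0. The interstitial list did not, with 10 of 20. Fcer1g, an adaptor of Fc receptors, was lower by -1.48 ± 0.13 (7.03 to 7.31 in 129S1, 8.24 to 9.22 in B6). Laptm5 differed by -0.57 ± 0.15 and Cd52 by -0.33 ± 0.08, the latter not called without B6 XX replicate 2 (adjusted p = 0.0628). The list's mean level ranged from 7.85 to 8.22 in 129S1 and from 7.98 to 8.58 in B6, while its adaptor Tyrobp (-0.06) and the lysozyme gene Lyz2 (-0.20) were not called. The part of macrophage number, or of an allele under a probe, in these differences was not tested. Among mesonephric genes 2 of 10 were higher, the homeobox gene Lhx1 (0.54 ± 0.13) and the ligand Bmp7 (0.39 ± 0.10), with Pax2 not among the kept probes, Pax8 at 0.06 and Gata3 at -0.12. The mesonephric list ranged from 7.79 to 8.21 in 129S1 and from 7.82 to 8.07 in B6. Of 19 endothelial genes 1 was called (Sox7, 0.39 ± 0.10, higher, lost without B6 XY replicate 1 at an adjusted p of 0.054), and of 15 red blood cell genes Hbb-b2 was higher by 0.55 ± 0.18 (lost in 9 of 14 fits without 1 array, adjusted p up to 0.119) and Hbb-bt lower; Hbb-y (0.04) and Alas2 (0.11) were not called.

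Of 24 collagen genes 7 were higher and 1 lower (33.3% called), with a median of 0.10. Col16a1 ranged from 8.98 to 9.61 in 129S1 and from 8.03 to 8.77 in B6 (0.88 ± 0.14, adjusted p = 1.02e-06), and the basement membrane chain Col4a2 was higher by 0.52 ± 0.13. Col26a1, Col23a1 and Col15a1 were higher by 0.38, 0.41 and 0.38. Col1a2, a chain of type I collagen, was lower (-0.78 ± 0.17). Of 18 other matrix genes 2 were higher, Fbln1 (0.59 ± 0.09, adjusted p = 1.43e-06) and Fbln2. The interstitial list, whose mean ranged from 8.85 to 9.41 in 129S1 and from 9.02 to 9.29 in B6, had 1 of 20 genes higher, Rgs5, and 1 lower, Col1a2.

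Among Hox genes, which set position along the body axis, 3 of 22 were lower and 0 higher. Hoxa7 ranged from 9.55 to 10.33 in 129S1 and from 10.45 to 11.19 in B6 (-0.84 ± 0.15, adjusted p = 3.73e-05), without overlap. Its neighbour Hoxa5 gave -0.62 ± 0.20 and Hoxd3 gave -0.26 ± 0.09; these lost their calls in 6 and 9 of 14 fits without 1 array (adjusted p up to 0.125 and 0.167). Of 8 interferon-inducible GTPases 4 were higher, the 4 Gbp genes of chromosome 3, while Irgm1 (0.06), Irgm2 (0.03) and Igtp (0.04) were not called. Of 12 genes of class I and antigen processing, H2-Bl and H2-T23 were higher, with B2m at -0.15 (adjusted p = 0.68). H2-T23 (0.28 ± 0.08) lost its call in 3 fits. Of 14 genes of the amino acid stress response 3 were lower: the transcription factor Atf4 (-1.39 ± 0.13, 7.30 to 7.69 in 129S1, 8.69 to 8.99 in B6), the asparagine synthetase Asns (-0.51 ± 0.12) and the transporter Slc7a5 (-0.33 ± 0.11, lost in 8 of 14 fits without 1 array). Atf4 had 1 kept probe, and an effect of an allele on that probe was not tested. Of 22 genes of hypoxia and glycolysis the pyruvate kinase Pkm was lower (-0.94 ± 0.10) and no other was called.

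Of 31 genes of cell division, 3 were lower (Plk1, Kif23 and Cenpa), 2 were higher (Cdkn1a and the cyclin Ccnd2), and the median was -0.11. Kif23 (-0.47 ± 0.14), Cenpa (-0.27 ± 0.08) and Ccnd2 (0.30 ± 0.10) lost their calls in 5, 6 and 9 of 14 fits without 1 array. Of 57 ribosomal protein genes 5 were lower and 0 higher, with a median of 0.03. They were Rpl29 (-1.53 on its brightest probe), Rps3a1 (-1.03 ± 0.28), Rps15a (-0.60 ± 0.08), Rpl30 (-0.54 ± 0.13) and Rps9 (-0.29 ± 0.08, lost in 3 fits). Of 47 proteasome and signalosome genes 3 were lower, Psmd8, Cops8 and Psmb5 (-1.01 ± 0.16), and the median was -0.001. Of 177 zinc finger genes named Zfp 5 were higher and 19 lower (13.6% called), led by Zfp869 (-1.09 ± 0.09), Zfp420 (-0.99 ± 0.09) and Zfp101 (-0.85 ± 0.08).

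**Figure D4:**
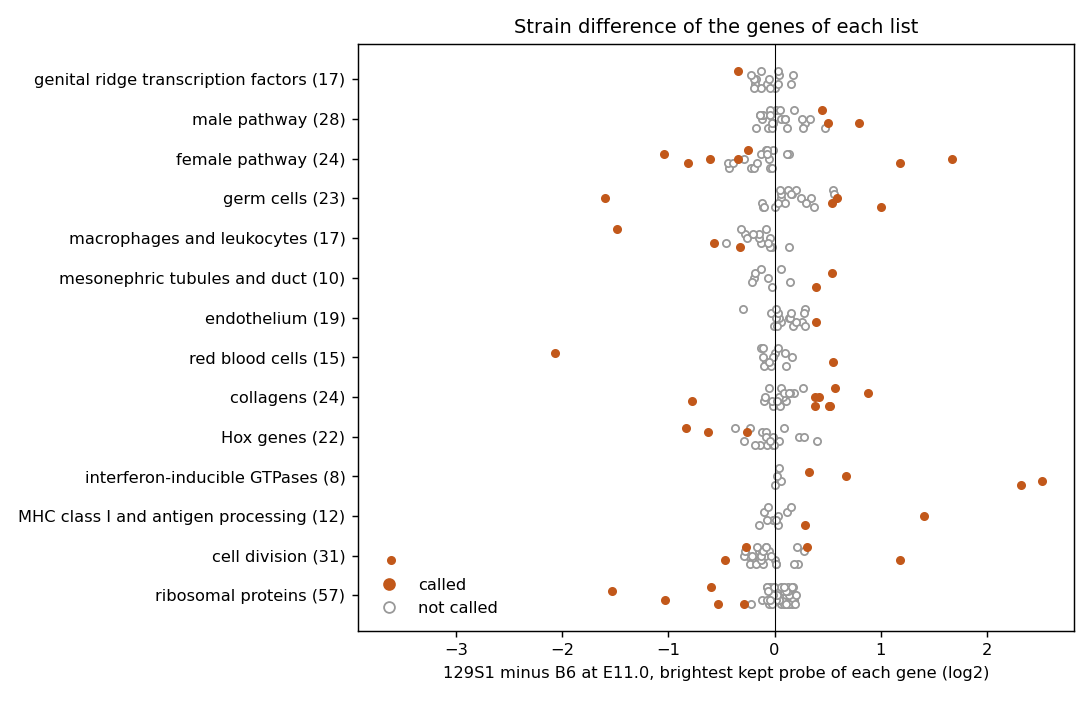
Difference of 129S1 minus B6 at E11.0 (horizontal axis, log2) of the brightest kept probe of each gene, for 14 gene lists (vertical axis, number of measured genes in brackets; points are spread vertically for legibility). Genital ridge factors lie between -0.34 and 0.17, the 4 Gbp genes stand to the right of the other interferon-inducible GTPases, and collagens are mostly to the right of 0.

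Genes that become dimorphic later were also read at E11.0. The dimorphic sets were drawn from E12.0 arrays, and the rising and falling sets from E11.2 and E12.0 arrays. These arrays share no embryo with E11.0. They do share the fit, the normalization and the spread of each probe. For 129S1 XY gonads at E12.0 there were fewer than 3 arrays. This small group also enters the strain differences at E12.0 and over the later stages. A probe of small spread is more easily called in both contrasts, so the shares called are not independent of the sets. Of 608 probes higher in XY gonads at E12.0, 53 were higher and 29 lower in 129S1 at E11.0 (13.5% called, median 0.04). Of 732 probes higher in XX gonads at E12.0, 63 were higher and 61 lower (16.9% called, median 0.01), against 9.4% and a median of 0.01 over all kept probes. Among the 92 probes higher in XY by 1 or more the counts were 16 and 5 (22.8% called, median 0.04). Among the 51 higher in XX by 1 or more they were 8 and 6 (27.5% called), and the median was -0.05. Of 1046 probes that rose from E11.2 to E12.0, 74 were higher and 50 lower (median 0.04), and of 961 that fell, 83 and 72 (median 0.00). Of the 31 probes that rose by 1 or more, 5 were higher and 0 lower (median 0.06), and of the 16 that fell by 1 or more, 5 were higher and 3 lower (50% called, median 0.08).

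Most differences of E11.0 were seen again in the embryos of later stages. All 119 probes that differed by 1 or more had the same sign at each of the 5 later stages and were called in that direction at E11.2, E11.4 and E11.6; at E11.8 and E12.0, 113 and 112 were called. Of all 1208 called probes, between 95.5% (E11.6) and 98.6% (E11.4) had the same sign. Against the mean of the later stages 1116 were called the same way and 3 the opposite way. Gbp2b, for instance, differed by 2.29 ± 0.18 to 3.02 ± 0.17 from E11.2 to E12.0. Over all 12849 kept probes, 3592 were called on the mean of the later stages. Between 1015 (E11.8) and 1351 (E11.2) were called at single later stages. The stages share the fit, the normalization and the spread of each probe. An effect of an allele on a probe, which every stage would share, was not tested.

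A direct test of E11.0 against the mean of the 5 later stages called 10 probes (0.0778%), 8 with a positive and 2 with a negative change. At an unadjusted p under 0.05 there were 741. Gng13 was lower in 129S1 by -1.04 ± 0.11 at E11.0 and by -1.71 ± 0.11 at E11.2 to -2.08 ± 0.12 at E12.0 (E11.0 minus later 0.84 ± 0.12, adjusted p = 4.18e-05). Pglyrp1, a peptidoglycan recognition protein, was at 7.01 to 7.35 in 129S1 and 7.77 to 8.13 in B6 at E11.0 (-0.84 ± 0.17) and differed by -2.06 ± 0.08 over the later stages (adjusted p = 8.31e-05). The apolipoprotein gene Apoc1 had overlapping arrays at E11.0 (9.02 to 9.90 in 129S1, 9.29 to 9.74 in B6; -0.09 ± 0.11) and differed by -0.53 ± 0.11 at E11.2 and -0.90 ± 0.12 at E11.8 (adjusted p = 0.002). These 3 probes kept their calls in all 14 fits that left out 1 array. At E11.0 the highest 129S1 array was at 7.54 for Gng13 and 7.35 for Pglyrp1, both below the dimmest kept level of 7.59. Gng13 had 1 kept probe. The part of a change in B6 alone, or of an allele under a probe, in the larger later differences of Gng13 and Pglyrp1 was not tested.

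Mgst1, a microsomal glutathione transferase, differed by -1.59 ± 0.12 at E11.0 and -2.28 ± 0.06 later on 1 probe (adjusted p = 0.0058, or 0.0524 without B6 XY replicate 1), whereas its other probe gave 0.26 ± 0.11 at E11.0. The reverse course, a difference at E11.0 that was smaller later, was found for Sphkap, an anchor of protein kinase A (0.98 ± 0.16 at E11.0, 0.49 ± 0.16 at E11.2 and -0.10 ± 0.17 at E12.0; adjusted p = 0.0298), for the neuronal tubulin regulator Stmn2 (-0.53 ± 0.09 at E11.0, -0.09 ± 0.04 later; adjusted p = 0.0298) and for the unnamed probe ILMN_2527805 (1.27 ± 0.12, then 1.10 ± 0.13 at E11.2 and 0.33 ± 0.14 at E12.0; adjusted p = 0.0324). Hs6st1, a heparan sulfate sulfotransferase, was higher by 0.38 ± 0.10 at E11.0 and at -0.14 ± 0.05 later (adjusted p = 0.0275). Vxn was at -0.01 ± 0.08 at E11.0 and reached 0.77 ± 0.09 at E12.0 (adjusted p = 0.0442), and the dimmer probe of Apoc1 differed by -0.08 ± 0.10 and then -0.58 ± 0.05 (adjusted p = 0.0494). Calls of these last 6 probes were lost in 4 (Hs6st1) to 12 (Vxn) of the 14 fits, with adjusted p of up to 0.265 for Apoc1 without 129S1 XX replicate 2.

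**Figure D5:**
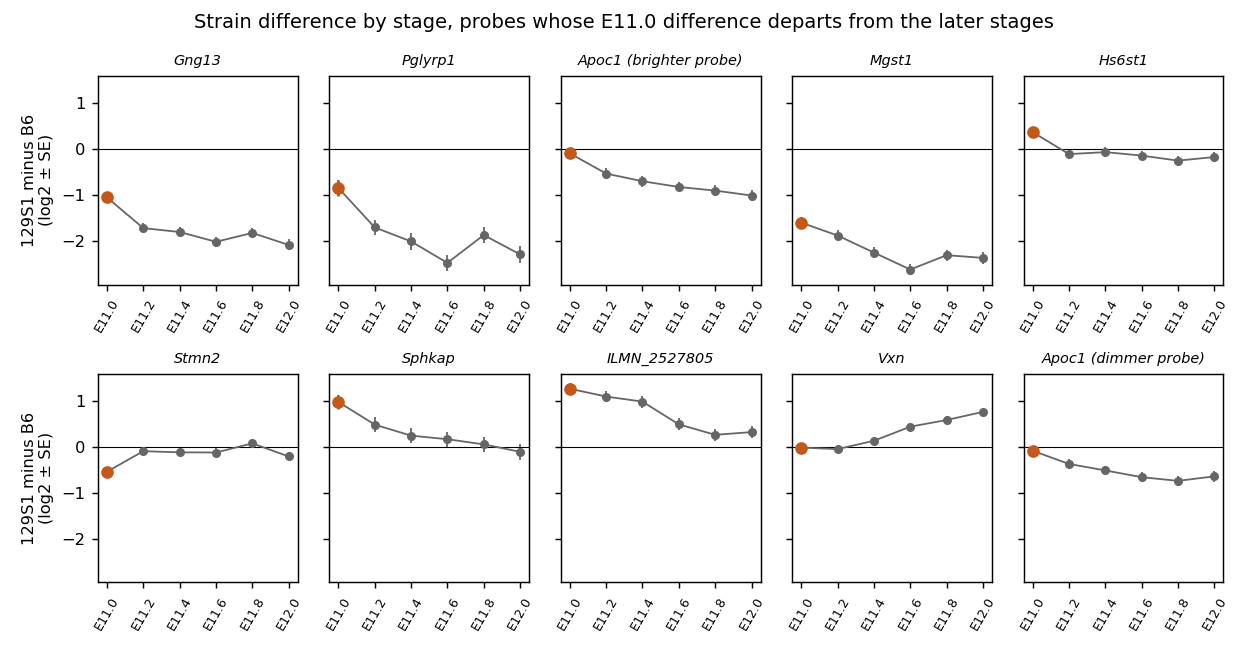
Difference of 129S1 minus B6 (vertical axis, log2, error bars are limma standard errors) at each stage (horizontal axis) for the 10 probes whose difference at E11.0 (orange) departed from the mean of the later stages. Gng13, Pglyrp1, Apoc1 and Mgst1 move further below 0 after E11.0, Sphkap and ILMN_2527805 move toward 0, and Vxn moves above 0.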

How the data were processed

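Gonad RNA was hybridised to MouseRef-8 v2.0 BeadChips. The authors took raw values from GenomeStudio and quantile-normalized them with beadarray in R 2.12.0, and deposited log2 values, which were used unchanged. The deposited intensities and detection p-values before normalization (74 columns each) are named by chip position, are not paired with samples by the labels, and were not used; the authors' detection filter, chip and litter therefore do not enter. Instead the brighter 50% of 25697 probes were kept, by the second-brightest array of the best of 24 groups. Annotation gave 1 symbol for 23978 probes and none for 1719.

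A limma 3.58.1 model (R 4.3.3) of 24 group means over 74 arrays gave each contrast, with 50 residual degrees of freedom and Benjamini-Hochberg adjustment. The script was tested on simulated data. Figures used Python and matplotlib.

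The comparison and gene lists were chosen with earlier results of these data known. Named genes are the 15 largest called differences each way without overlap, all kept probes of those genes, called or smallest-p members of each list, the smallest p of the interaction and of E11.0 against later stages, and genes the study names; others named as examples of probes or neighbours were chosen after their values were seen. Alternatives were other filters, weights, blocks, normalizations and single arrays left out.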

Additional observations from a re-analysis of the deposited data

Results flagged for a closer look

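In 129S1 XY gonads, the 1 group with enough arrays (5) for a test of single values, 10 of 155 named probes had an array far from the other 4 by Dixon's test. Chance flags about 1 in 20 such groups. Replicate 2 was high for Plk1 (7.95, others 7.51 to 7.60), Phlda2 (8.51, others 7.63 to 7.88), Fbln2 (9.59, others 8.86 to 9.03), Fbln1 (11.03, others 10.64 to 10.68) and Mgst1 (7.74, others 7.10 to 7.17). Replicate 3 was low for Mcm6 on a brighter probe (10.97, others 11.28 or more) and for Lhx1 (7.35, others 8.05 to 8.24). Replicate 1 was high for Kif23 (9.59, others 9.23 to 9.33), and replicate 5 for Rec8 (8.0, others 7.64 to 7.71) and Vxn (7.45, others 7.14 to 7.21).

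The strain difference at E11.0 departed from that of the later stages for 10 probes. The E11.0 difference minus the later mean was 0.84 for Gng13, 1.22 for Pglyrp1, 0.70 and 0.50 for the 2 probes of Apoc1, 0.69 for Mgst1, 0.52 for Hs6st1, 0.81 for Sphkap, 0.64 for ILMN_2527805, -0.45 for Stmn2 and -0.39 for Vxn, with limma adjusted p from 4.18e-05 to 0.0494.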

How the results depend on the processing

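Arrays give no depth, and at E11.0 precision comes from 3 to 5 arrays a group. A later group, named with the dimorphic sets above, had fewer. Detection, chip and litter could not be modelled. The count of 1208 probes that differed by strain became 767 over the brightest 25% of probes and 340 when tested against a log2 difference of 0.25; its other alternatives gave 1016 to 1364. In XY gonads those probes gave 450. For E11.0 against later stages, all probes gave 6 and array weights 63, instead of 10. Pairs of probes with unequal differences numbered 370 of 10994 when all probes entered. The fewer or more probes tested are part of these settings; the cause of the change under array weights was not tested. Normalizing the 14 arrays again gave the same counts as fitting them alone, and centring arrays on their median again gave 1208. The deposited values were already quantile-normalized, so neither setting is a separate check. Both B6 arrays on the second axis were left out after the data were seen.

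The replicate numbers did not pair the samples: deviations of 18 same-numbered pairs correlated at -0.54 to 0.49, 7 of them over 0.1. With a replicate block, 1214 probes differed by strain, 678 in XX, 690 in XY, 0 by interaction, 5 against later stages and 9 by sex.

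Leaving out 1 array at a time gave 1016 to 1191 probes by strain, 400 (without B6 XX replicate 2) to 631 in XX, 515 to 694 in XY, 0 by interaction, 5 (without 129S1 XX replicate 2) to 13 against later stages and 7 to 9 by sex. Of 122 named probes that were called, 95 stayed called in all 14 such fits.

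Changes of sign were limited to 12 uncalled probes near 0. With array weights, Vxn gave 0.00137, Tead2 -0.0395, Gata4 -0.0193 and Wnt4 0.0156. Uncx gave -0.0163 with the replicate block, and Hmga2 -0.0161 with strain and sex as additive terms. Without both B6 arrays, Mcm6 gave 0.000659 on 1 probe, Vxn 0.0302, Tead2 -0.132 and Gata4 -0.0554. With 1 array left out, the ranges were -0.00985 to 0.228 for Epm2aip1, -0.00506 to 0.102 for Uncx, -0.0383 to 0.0129 for Vxn, -0.173 to 0.0365 for Apoc1, -0.2 to 0.054 for Lhx9, -0.0922 to 0.102 for Tead2, -0.0281 to 0.116 for Gata4, -0.128 to 0.0452 for Nr5a1, -0.0211 to 0.0763 for Osr1, -0.0708 to 0.0872 for Hmga2 and -0.224 to 0.0647 for Wnt4.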
